A study of Mus musculus with 4 samples.

Results

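The genes described here are those of fatty acid oxidation with the receptor Ppara and target genes of it, in mouse cerebrum that lacks the lysolipid transporter Mfsd2a in endothelial cells. They are 9 genes of 18194 that were measured, chosen by name: Ppara, Pdk4, Angptl4, Cpt1a, Cpt2, Acadvl, Acadl, Acadm and Hadha. Every probe set (the group of probes that reads 1 transcript) annotated with exactly 1 of these symbols was used, 16 in all, and where a gene had several, the one brightest on average (mean log2 signal of all arrays) stood for it. RNA was measured on 4 Affymetrix mouse expression arrays, each holding 1 pool of RNA from 5 to 6 hemi-cerebrums. The 2aECKO pool came from Mfsd2a fl/fl mice with Tie2-cre at postnatal day 9, and its control, 2afl/fl, from Mfsd2a fl/fl mice without cre at postnatal day 9. The 2aiECKO pool came from Mfsd2a fl/fl mice with Cdh5ERT2-cre at postnatal day 8, in which 4-hydroxytamoxifen (4-OHT) given from birth activates the cre. Its control, 2afl/fl 4-OHT, came from Mfsd2a fl/fl mice of postnatal day 8 without cre. Those control mice were also treated with 4-OHT, which the title of their pool names. All 4 pools therefore carried the floxed allele, and mice of both sexes were used. For 2aiECKO the labels conflict, the source name giving 2aECKO and the title and genotype 2aiECKO, and the latter were used. Tie2-cre is also active in some blood cells, and the RNA was of whole cerebrum, in which endothelial cells are a minor part. In such bulk RNA, fewer cells of a type and less RNA per cell cannot be told apart.

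Mitochondrial fatty acid oxidation imports long-chain fatty acids through the carnitine shuttle and shortens them in cycles to acetyl-CoA. The nuclear receptor Ppara, bound to a retinoid X receptor, is activated by fatty acids and switches on genes of this pathway in liver, heart and muscle. In brain, which burns mostly glucose and ketone bodies, the pathway is found mainly in astrocytes, and the suckling period, with its milk fat, is a time of high fatty acid supply. The comparison bears on whether brains deprived of a lipid carrier at the blood-brain barrier carried more or less RNA of the machinery that burns fatty acids.

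The arrays of a pair were on a common scale and the pairs were not. The median signal was 74.1 and 75.5 in 2afl/fl and 2aECKO and 48.7 and 49.2 in 2afl/fl 4-OHT and 2aiECKO, so differences were taken within a pair as log2 signal of the knockout minus that of its control. With 1 array per group there is no replicate, hence no SD, no test and no p-value, and every difference below compares 2 pools rather than 2 conditions. Mfsd2a itself had signals of 423 in 2afl/fl, 410 in 2aECKO, 369 in 2afl/fl 4-OHT and 299 in 2aiECKO, which is a log2 difference of -0.05 and -0.30. No source used here says whether its 1 probe set lies in the deleted part. Of 11 neuron markers measured, 11 had a mean signal of at least 50. Of 9 markers of liver, fat and muscle, tissues rich in fatty acid oxidation, 2 did, both of them muscle genes, so the labelled tissue and its markers went together. The pairs also differed in sex-linked genes, since the Y-linked Eif2s3y had deposited signals of 92.7 and 107 in the 2aECKO pair and 244 and 225 in the 2aiECKO pair, whose median signal was the lower.

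A gene was counted as higher when its signal was at least 50 in the knockout and its fold over the control at least 25% above 1, and as lower when its signal was at least 50 in the control and its fold at most 0.8 (20% below 1). By this rule Pdk4 was higher in both knockouts, and the other 8 genes were neither higher nor lower in either. Of all genes with a signal of at least 50 on 1 array of the pair, 2.21% were higher and 1.74% lower in 2aECKO, and 1.88% were higher and 0.598% lower in 2aiECKO. In each comparison 8 of the 9 genes reached that signal, and 1 of the 8 was higher and 0 were lower. Over both comparisons together 0.574% of genes were higher in both, Pdk4 among them, and 0.108% lower in both. At a minimum signal of 100 instead of 50, 1.99% were higher and 1.3% lower in 2aECKO, 1.37% and 0.408% in 2aiECKO, and 0.469% and 0.11% in both. At a fold of 1.5, 0.288% were higher and 0.0986% lower in 2aECKO, 0.299% and 0.0664% in 2aiECKO, and 0.0832% higher in both. The 8 genes other than Pdk4 had folds from 0.945 to 1.17 in 2aECKO and from 0.968 to 1.09 in 2aiECKO. The median log2 difference of all 9 was 0.06 in 2aECKO and 0.07 in 2aiECKO, beside -0.01 and -0.0019 over all genes measured, and without Pdk4 it was 0.02 and 0.05. The difference was above 0 for 5 of the 9 in 2aECKO, for 6 in 2aiECKO, and for 4 in both.

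**Figure D1:**
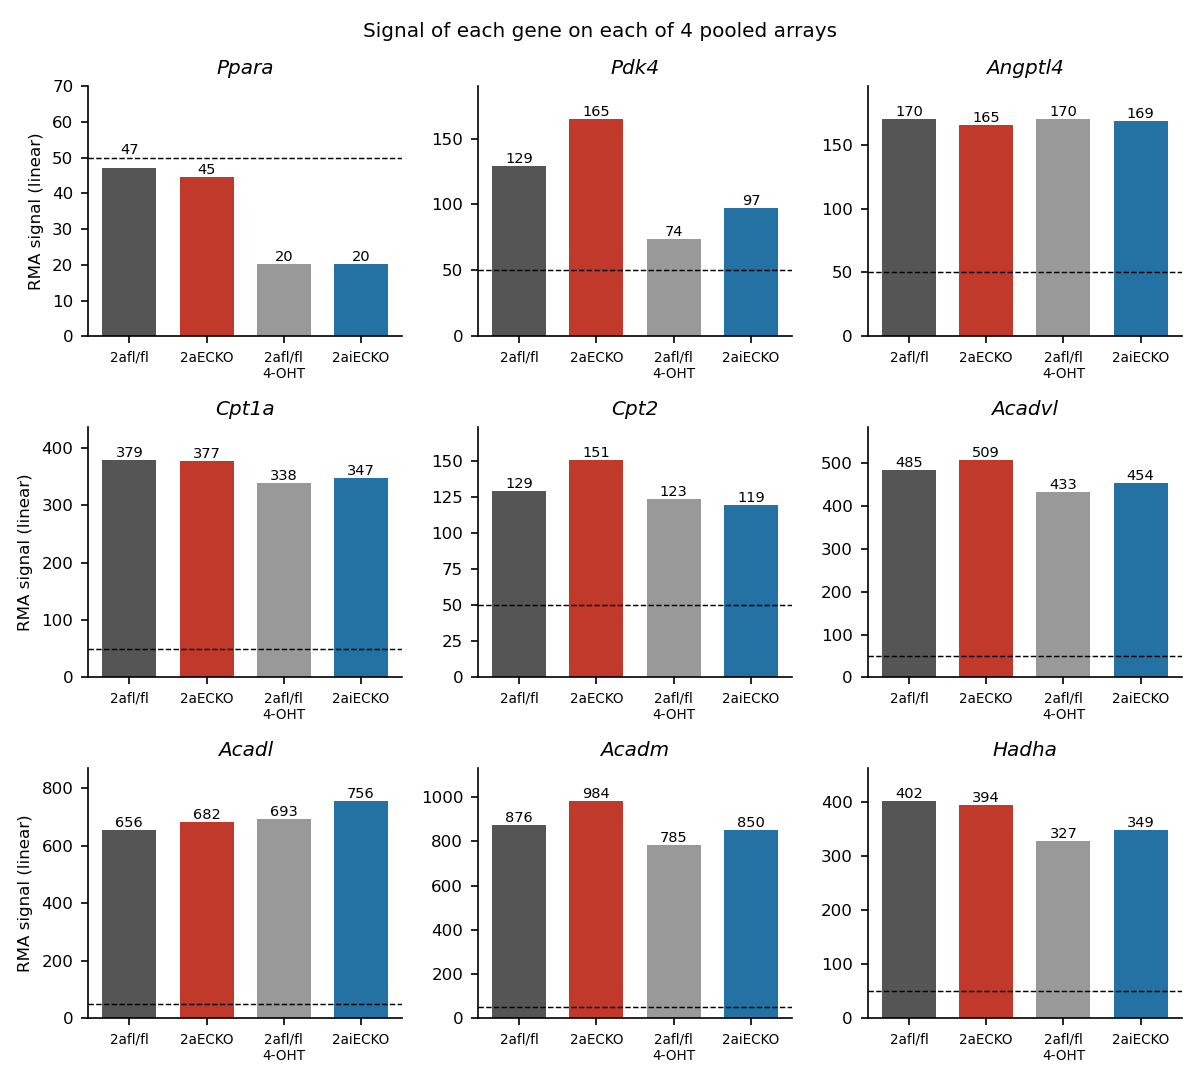
RMA signal on a linear scale (vertical axis) of the 9 genes at their brightest probe set, with 1 bar per pooled array (2afl/fl, 2aECKO, 2afl/fl 4-OHT and 2aiECKO) and a dashed line at a signal of 50; no error bars exist with 1 array per group. Pdk4 stands at 165 against 129 in 2aECKO and its control and at 97.5 against 73.95 in 2aiECKO and its control, while the bars of the other genes lie close together within each pair and those of Ppara stay under the line.

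Pdk4, pyruvate dehydrogenase kinase 4, switches off the pyruvate dehydrogenase complex and so spares glucose while fatty acids are burned. It is a well-known target of Ppara that glucocorticoids and fasting also induce. Its 1 probe set gave signals of 128.9 in 2afl/fl, 165 in 2aECKO, 73.95 in 2afl/fl 4-OHT and 97.5 in 2aiECKO. Each knockout pool was above its own control, by 1.28-fold in 2aECKO and 1.32-fold in 2aiECKO, or log2 differences of 0.36 and 0.40. Being the only Pdk4 probe set on the array, it has no other probe set to set beside it. Among 4414 genes whose mean signal lay within 2-fold of its own, 2.58% had a difference at least as high in 2aECKO and 1.36% in 2aiECKO, and 15 genes had both. The robust SD of the log2 differences of those genes was 0.14 and 0.13.

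The controls of the pairs also differed for Pdk4. After quantile normalization over all 4 arrays its signal was 109.5 in 2afl/fl, 139.9 in 2aECKO, 89.6 in 2afl/fl 4-OHT and 115 in 2aiECKO. The 2afl/fl 4-OHT pool was lowest, the 2afl/fl and 2aiECKO pools lay close together, and the 2aECKO pool was highest. The control pools were thus apart by a log2 difference of -0.29. After the same normalization the knockouts differed from their own controls by 0.35 in 2aECKO and 0.36 in 2aiECKO. With the untreated control in place of its own, 2aiECKO was higher by 0.07. Age, 4-OHT, sex makeup and array scale differ between the controls and cannot be told apart.

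The promoters of the genes were read for the sequence that Ppara and the retinoid X receptor bind, a direct repeat of the hexamer AGGTCA with 1 base between. The RefSeq table of GRCm38.p6 held 8 of the 9 genes, all but Angptl4, and the 250 bases before each start were searched on both strands. None of the 8 held the direct repeat, which 0.0335% of 32851 promoter windows held. The hexamer alone stood in 3 of the 8, those of Cpt1a, Acadvl and Acadm, against 14.02% of all windows. No match says only that these letters are absent from this window.

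The promoter of Pdk4 is shown because it belongs to the gene that differed in both knockouts. It lies on the minus strand at chr6:5496279-5496528, upstream of the transcript, and no hexamer was found in it, so no letter is in capitals.
Pdk4: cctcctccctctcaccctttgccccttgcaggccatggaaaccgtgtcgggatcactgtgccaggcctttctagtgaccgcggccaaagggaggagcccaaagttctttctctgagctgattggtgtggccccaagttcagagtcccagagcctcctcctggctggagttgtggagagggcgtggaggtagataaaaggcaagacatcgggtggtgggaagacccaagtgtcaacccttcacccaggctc

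The 60-base stretches that hold the hexamer are shown for contrast, with the hexamer in capitals in the direction of the transcript, so that TGACCT is the hexamer on the other strand. It began 94 bases before the start of Cpt1a (plus strand, chr19:3323180-3323239), 87 bases before that of Acadvl (minus strand, chr11:70015483-70015542) and 249 bases before that of Acadm (minus strand, chr3:153944834-153944893). These genes were not counted as higher or lower in either knockout.
Cpt1a: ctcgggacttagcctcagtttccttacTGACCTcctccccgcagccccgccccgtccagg
Acadvl: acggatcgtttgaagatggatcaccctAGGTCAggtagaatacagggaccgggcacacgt
Acadm: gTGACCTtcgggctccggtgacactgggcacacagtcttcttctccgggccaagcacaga

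Ppara, the receptor, was dim on every array. At its brightest probe set the signals were 47.2 in 2afl/fl, 44.5 in 2aECKO, 20.3 in 2afl/fl 4-OHT and 20.3 in 2aiECKO, below the threshold of 50 throughout. The log2 difference was -0.08 in 2aECKO, and in 2aiECKO the signal equalled that of its control to the last deposited digit. Exact equality was common within pairs, at 5.25% of probe sets in the 2aECKO pair and 6.32% in the 2aiECKO pair, while 0 probe sets were equal between the controls. The other 2 probe sets of Ppara had signals from 15.0 to 28.9 and log2 differences of -0.05 and 0.06 at one and of 0.00 and 0.15 at the other (2aECKO first). A difference in Ppara RNA was not detectable at these signals.

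Angptl4, a secreted inhibitor of lipoprotein lipase and a classical target of the PPAR receptors that hypoxia also induces, was not counted as higher or lower in either knockout. Its signals were 170 in 2afl/fl, 165 in 2aECKO, 170 in 2afl/fl 4-OHT and 169 in 2aiECKO. Each knockout lay close to its own control, with log2 differences of -0.04 and -0.01. The like values of the pairs come with their different scales, since after quantile normalization over all 4 arrays the signals were 146 and 140.1 in the 2aECKO pair and 196 and 193 in the 2aiECKO pair. This probe set is of a design that can also read related transcripts (its identifier ends in _s_at), and the other Angptl4 probe set had signals of at most 6.39, with -0.07 in 2aECKO and -0.42 in 2aiECKO. Of 12 hypoxia-induced genes measured, 0 were higher and 0 lower in either knockout, with medians of -0.04 and -0.07. With 2.21% and 1.88% of all genes higher, that count says little. Slc2a1, the glucose transporter, had 0.15 and 0.17, Bnip3, a mitophagy receptor, had -0.25 and 0.04, and P4ha1, a collagen prolyl hydroxylase, had -0.10 and -0.22.

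Of the carnitine shuttle, Cpt1a, the outer-membrane enzyme that sets the rate of entry, had at its brightest probe set signals of 379 in 2afl/fl, 377 in 2aECKO, 338 in 2afl/fl 4-OHT and 347 in 2aiECKO. The log2 differences were -0.01 and 0.04. Its other probe sets were dimmer, with signals of at most 137 and 25.3, and had 0.00 and -0.02 for 2aECKO but 0.21 and 0.18 for 2aiECKO.

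Cpt2, which rebuilds acyl-CoA on the inner membrane, was above its control in 2aECKO and below it in 2aiECKO. Its signals were 128.9 in 2afl/fl, 151 in 2aECKO, 123 in 2afl/fl 4-OHT and 119 in 2aiECKO. The log2 difference was 0.22 in 2aECKO, the next highest after Pdk4 there, and -0.05 in 2aiECKO. Its dim other probe set, with signals of at most 15.97, gave 0.07 and 0.14. Among 4505 genes of like signal, 7.30% were at least as high in 2aECKO, and the robust SD of their differences was 0.13.

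The acyl-CoA dehydrogenases catalyse the step that opens each cycle, for chains of different length. Acadm, for medium chains, had signals of 876 in 2afl/fl, 984 in 2aECKO, 785 in 2afl/fl 4-OHT and 850 in 2aiECKO. Its log2 differences were 0.17 and 0.11, and 6.84% and 8.89% of 3948 genes of like signal were at least as high. Acadvl, for very long chains, had 485 and 509 in the 2aECKO pair and 433 and 454 in the 2aiECKO pair, a log2 difference of 0.07 in both. Acadl, for long chains, had 656 and 682 in the 2aECKO pair and 693 and 756 in the 2aiECKO pair, or 0.06 and 0.13. All 3 dehydrogenases were above their control in both knockouts by less than 25%. Among genes of like signal, 26.2% and 21.0% were at least as high as Acadvl, and 28.5% and 8.33% as Acadl (2aECKO first). The other Acadl probe set, at signals of at most 9.92, gave -0.31 and 0.00.

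Hadha, the alpha subunit of the trifunctional protein that completes the cycle for long chains, had signals of 402 in 2afl/fl, 394 in 2aECKO, 327 in 2afl/fl 4-OHT and 349 in 2aiECKO. The log2 differences were -0.03 and 0.09. Its partner Hadhb, the thiolase subunit, named for that pairing, had 0.05 and 0.14. The subunits were close to their controls in both pairs.

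**Figure D2:**
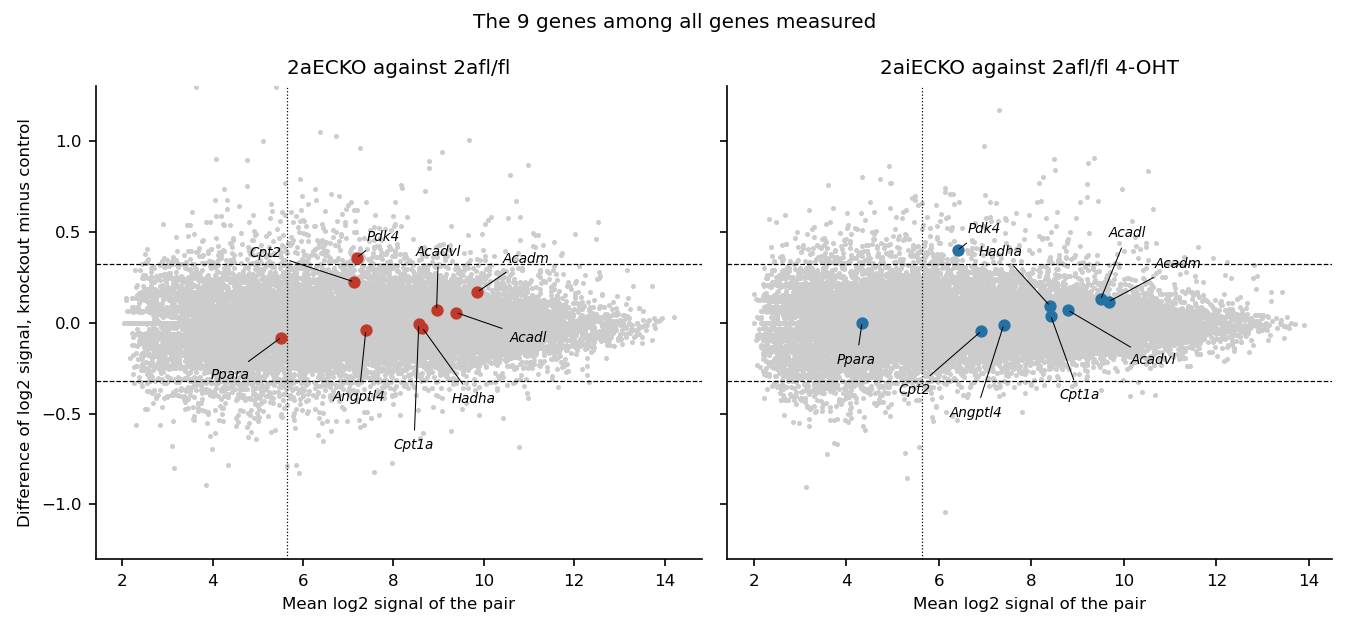
Log2 difference, knockout minus control (vertical axis), against the mean log2 signal of the pair (horizontal axis) for all genes measured (grey) and the 9 genes (coloured, named), in 2aECKO (left) and 2aiECKO (right); dashed lines mark 25% above and 20% below the control and the dotted line a signal of 50. Pdk4 lies above the upper dashed line in both panels and the others between the lines; 6 genes of the right panel lie beyond the drawn range of 1.3.

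Between the 2 controls several of the genes differed more than between a knockout and its control. After quantile normalization over all 4 arrays, 2afl/fl 4-OHT minus 2afl/fl gave a log2 difference of 0.43 for Angptl4, 0.40 for Cpt2, 0.39 for Acadl and -0.48 for the dim Ppara. It gave 0.16 for Cpt1a and Acadvl, 0.13 for Acadm and 0.03 for Hadha. These values are of the brightest probe sets, and those of Pdk4, at -0.29, and Ppara were the ones below 0. Other probe sets of Cpt1a and Cpt2 went the other way from the brightest. They gave -0.58 and -0.67 for Cpt1a, the first of them at signals from 63.9 to 137, and -0.23 for the dim one of Cpt2. The dim other ones of Acadl and Angptl4 gave 0.07 and 0.15, and those of Ppara 0.37 and -0.12.

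**Figure D3:**
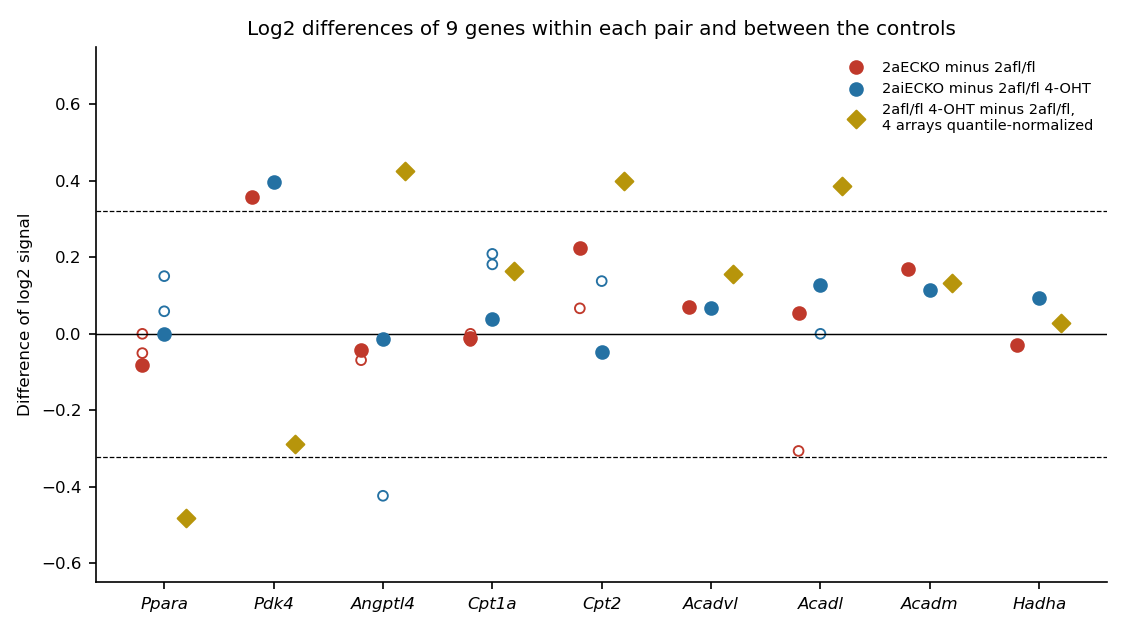
Differences of log2 signal (vertical axis) for the 9 genes: 2aECKO minus 2afl/fl (red), 2aiECKO minus 2afl/fl 4-OHT (blue), and 2afl/fl 4-OHT minus 2afl/fl after quantile normalization over all 4 arrays (yellow diamonds). Filled symbols are the brightest probe set and open circles the others, which are drawn for the knockouts but not between the controls. Dashed lines mark 25% above and 20% below. Pdk4 is past the upper line in both knockouts at 0.36 and 0.40, and Angptl4, Cpt2 and Acadl are past it between the controls.

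Of 18 other genes of mitochondrial oxidation measured, 0 were higher and 0 lower in either knockout, a count that with 2.21% and 1.88% of all genes higher says little about the pathway. Their median was 0.01 in 2aECKO, with 10 above 0, and 0.08 in 2aiECKO, with 12 above 0. Eci2, an enoyl-CoA isomerase, had the highest difference in 2aiECKO at 0.29, where the robust SD of all genes was 0.12, and had 0.14 in 2aECKO, and Eci1, its mitochondrial relative, had 0.21 in 2aECKO and 0.13 in 2aiECKO. Crat, carnitine acetyltransferase, was lowest in 2aECKO at -0.12 and had -0.06 in 2aiECKO. Slc22a5, the carnitine importer, had 0.13 and -0.10, and its other probe set, at a mean signal of 71.6, gave 0.11 and -0.33.

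Of 12 genes of peroxisomal oxidation measured, 1 was higher and 0 lower in 2aECKO, and 0 were called in 2aiECKO, with medians of 0.05 and 0.04. The 1 was Ehhadh, the bifunctional enzyme and a Ppara target, whose signals were 37.7 in 2afl/fl, 51.9 in 2aECKO, 28.5 in 2afl/fl 4-OHT and 24.02 in 2aiECKO. It was above its control by 0.46 in 2aECKO, just over the threshold of 50 there, and below it by -0.25 in 2aiECKO. Abcd2, an importer of very long-chain fatty acids, had -0.30 and -0.12, with -0.31 and -0.35 in 2aECKO at its other probe sets of like signal. Abcd3, the main importer of branched chains, had 0.17 and 0.08, and Crot, carnitine octanoyltransferase, had -0.04 and 0.15.

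Of 12 PPAR receptors, partners and cofactors measured, 1 was higher and 0 lower in 2aECKO, and 0 were called in 2aiECKO, with medians of -0.04 and -0.03. Lpin1, a coactivator of Ppara and also a phosphatidate phosphatase of lipid synthesis, was the 1, with signals of 230.2 and 302 in the 2aECKO pair. It had a log2 difference of 0.39 there, and of 0.24 in 2aiECKO at signals of 168 and 198. Ppargc1a, the master coactivator of mitochondrial genes, was lowest in both, with signals of 875 and 729 in the 2aECKO pair and 490.4 and 411 in the 2aiECKO pair. Its log2 differences were -0.26 and -0.26, short of 20% lower, and its other 4 probe sets gave from -0.30 to -0.16 in 2aECKO and from -0.15 to 0.01 in 2aiECKO. Its relative Ppargc1b, named after its values were seen, had -0.25 and -0.19.

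Of 17 other PPAR targets measured, 2 were higher in each knockout and 0 lower, with medians of 0.01 and 0.09. Txnip, an arrestin-like protein that limits glucose uptake, was higher in both, with signals of 522 and 698 in the 2aECKO pair and 512 and 720.1 in the 2aiECKO pair. Its log2 differences were 0.42 and 0.49, and its other probe set gave 0.29 and 0.55. Acot1, an acyl-CoA thioesterase, was higher in 2aECKO at 0.37, with signals of 355 and 459, and had 0.09 in 2aiECKO. Plin2, which coats lipid droplets, was higher in 2aiECKO at 0.33, with signals of 339.9 and 427, and had 0.19 in 2aECKO. Fabp3, a fatty acid binding protein of heart and brain, had -0.10 and -0.11. The 8 lists of the pathway and its neighbours, described here and below, held 84 measured genes beside the 9, of which 73 had a signal of at least 50 in the 2aECKO pair and 70 in the 2aiECKO pair. They gave 4 higher and 0 lower in 2aECKO and 2 higher and 0 lower in 2aiECKO, with medians of -0.01 and 0.02, beside 2.21% and 1.88% higher over all genes.

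Genes that act with Pdk4 and Angptl4 were not called, and with 2.21% and 1.88% of all genes higher the counts below say little. Of the 6 other pyruvate dehydrogenase kinases, phosphatases and phosphatase regulators, 0 were called in either knockout, with medians of -0.10 and -0.04. Pdk2, the widely expressed kinase, had -0.13 and 0.17, the phosphatase gene Pdp1 had -0.15 and 0.08, Pdp2 had 0.20 and -0.01, and the regulator Pdpr had -0.08 and -0.13. All 5 subunits of the pyruvate dehydrogenase complex were uncalled, with medians of -0.11 and -0.01, and Pdha1, its E1 alpha subunit, had -0.15 and -0.07, Dld, its E3 subunit, -0.11 and 0.03, and Pdhx, its binding protein, 0.01 and 0.01. Of 7 angiopoietin-like genes and lipases measured, 0 were called, with medians of -0.07 and -0.02. Angptl1 had 0.05 and 0.30, Angptl7 had -0.22 and -0.07, and Gpihbp1, which anchors lipoprotein lipase to capillaries, had -0.13 and -0.12.

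Malonyl-CoA holds back Cpt1a. Of 7 genes that make it or restrain its synthesis, 0 were called in either knockout, with medians of -0.01 and 0.03. Over all genes 2.21% were higher and 1.74% lower in 2aECKO, and 1.88% and 0.598% in 2aiECKO, so 0 of 7 says little. Acaca, acetyl-CoA carboxylase, had signals of 730.1 and 864 in the 2aECKO pair, a log2 difference of 0.24, and 0.03 in 2aiECKO. Prkaa2, a catalytic subunit of AMP-activated kinase, had -0.18 and -0.22, and Prkaa1, the other, had -0.11 and 0.16.

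**Figure D4:**
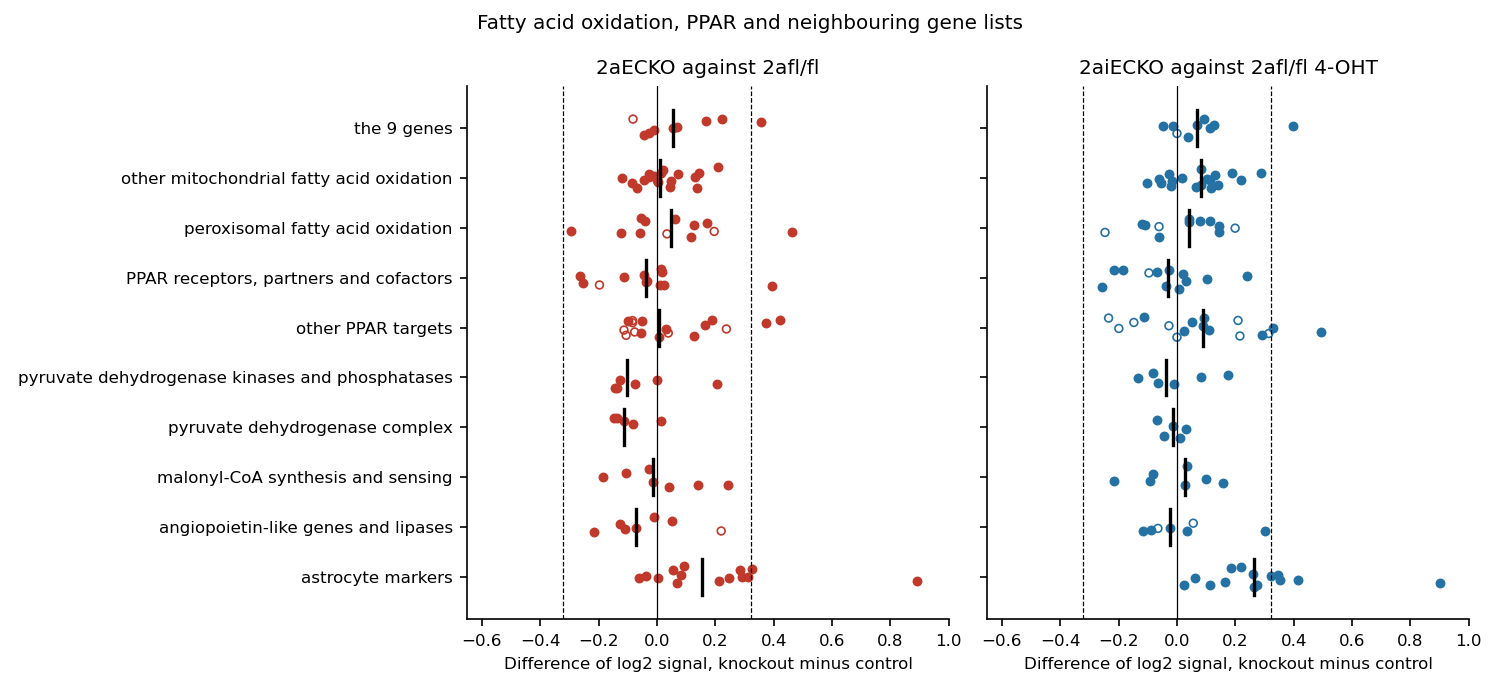
Log2 difference, knockout minus control (horizontal axis), of each gene in the 9 genes, 8 lists of neighbouring pathways and the astrocyte markers (rows), in 2aECKO (left) and 2aiECKO (right); filled points had a signal of at least 50 on 1 array of the pair, open points did not, black bars are medians and dashed lines mark 25% above and 20% below. The medians of the 9 genes, at 0.06 and 0.07, lie below those of the astrocyte markers, at 0.15 and 0.26.

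Markers of several cell types were higher beside Pdk4. Of 14 astrocyte markers, 2 were higher and 0 lower in 2aECKO and 4 were higher and 0 lower in 2aiECKO, with medians of 0.15 and 0.26. Their summed signal was 28422 in 2afl/fl, 31860 in 2aECKO, 20015 in 2afl/fl 4-OHT and 23738 in 2aiECKO. Gfap, the filament of reactive astrocytes, had 0.89 and 0.90, Gjb6 and Gja1, gap junction genes, had 0.32 and 0.41 and 0.31 and 0.35, S100b had -0.04 and 0.34, and Acsbg1, an acyl-CoA synthetase, had -0.06 and 0.02. The part of astrocytes in the values of Pdk4 was not tested.

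Of 8 choroid plexus and ependymal markers, 5 were higher in 2aECKO and 1 in 2aiECKO, and 0 lower, with medians of 0.43 and 0.15 and summed signals of 13054, 15159, 10817 and 12175 in the order above. They included Otx2, at 0.65 and 0.56, Tmem212, at 0.66 and 0.23, Ccdc153, at 0.54 and 0.12, Foxj1, at 0.44 and 0.03, Aqp1, at 0.42 and 0.13, and Ttr, at 0.20 and 0.17. Of 8 meningeal and fibroblast markers, 4 were higher in 2aECKO and 1 in 2aiECKO, and 0 lower, with medians of 0.25 and 0.12 and summed signals of 6044, 7891, 4272 and 4698. Col1a1 had 0.74 and 0.10, Col1a2 0.67 and 0.18, Igf2 0.48 and 0.26, Lum 0.34 and 0.38, and Pdgfra -0.01 and -0.09. All 14 astrocyte and all 8 meningeal markers had a mean signal of at least 50, as did all but Kl of the choroid and ependymal markers, and their part in the values of Pdk4 was not tested.

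Of 11 microglia and macrophage markers measured, 0 were higher and 2 lower in 2aECKO, and 8 were higher and 0 lower in 2aiECKO, with medians of 0.08 and 0.45. The 2 lower were the surface receptor P2ry12, at -0.36 and 0.26, and Tmem119, at -0.46 and -0.14. In 2aECKO 7 of the 11 were above 0, with C1qa highest at 0.31, and in 2aiECKO 10 were. The summed signals of the 11 were 4626, 4882, 4164 and 6020.4 in the same order. Tyrobp, a signalling adaptor, was highest of these markers in 2aiECKO at 0.76. Their part in the values of Pdk4 was not tested.

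Genes that glucocorticoids induce were read because Pdk4 is among their targets. Of 14, 3 were higher and 0 lower in each knockout, and the medians were 0.01 and 0.07. The 3 were Mt1 and Mt2, metal-binding metallothioneins that many stimuli induce, at 0.49 and 0.63 and at 0.49 and 0.73, and Sult1a1, a sulfotransferase, at 0.49 and 0.38. Zbtb16 was lowest, at -0.30 and -0.14. Of the 11 that were not called, Fkbp5, a chaperone of the glucocorticoid receptor, had 0.05 and -0.02. Tsc22d3, a leucine zipper protein, had 0.01 and 0.04, and both were named after their values were seen. The part of glucocorticoids in the values of Pdk4 was not tested.

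The genes whose pair of differences lay nearest to that of Pdk4 were found among 11560 genes (mean signal 50 or more) by the distance over the 2 comparisons. They were Ctso, a cathepsin gene, at 0.36 and 0.40, Lum at 0.34 and 0.38, Slc9a3r1, a scaffold protein, at 0.37 and 0.37, Bcas1, a gene of early myelinating oligodendrocytes, at 0.38 and 0.42, and Gjb6 at 0.32 and 0.41. The distances ran from 0.0054 for Ctso to 0.036 for Gjb6. The likeness rests on 2 differences from 4 arrays.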

How the data were processed

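The authors pooled equal amounts of RNA per genotype and hybridised each pool to 1 Affymetrix mouse array. What they deposited is a linear intensity per probe set from RMA, which adjusts background and normalizes by quantiles; the methods name the affy package in R and the submitters' processing notes Partek 6.6. Sorted log2 values differed by at most 0.071 within a pair and by up to 0.79 between the controls, so differences were taken within pairs, and levels of the 9 genes were compared across pairs after quantile normalization. Of 45101 probe sets, 34958 carried 1 symbol in the platform annotation, 932 several and 9211 were unnamed here. Symbols were updated by gene identifier from the RefSeq table of GRCm38.p6, which held the identifier of 34754.

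Log2 was taken, each gene was given by its brightest probe set, and the signal and fold thresholds for higher genes follow the methods. With 1 array per group no test was run, and precision is limited by the number of arrays. The script was tested on simulated data. Members and lists were chosen with earlier results of these data known. The named genes were the 9, Mfsd2a, and genes of each list called or at either end of its range. The ends were taken among genes whose mean signal reached 50, and not every gene so picked is printed. The 5 genes nearest Pdk4 exclude unnamed models and sex-linked genes. As alternatives all probe sets of a gene were averaged; others were leaving out less specific probe sets, a loess trend (fraction 0.3), median centring, other thresholds, quantile normalization over 4 arrays, and the other control or both. Listed genes without a probe set of 1 symbol are not analysed here. Python 3.11.15, numpy 2.4.6, pandas 2.3.3, statsmodels 0.14.6 and matplotlib 3.10.9 were used.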

Additional observations from a re-analysis of the deposited data

Results flagged for a closer look

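Of the 9 genes, 3 lay on opposite sides of their controls in the knockouts, and with 1 array per group the difference between the comparisons was not tested. Cpt2, at 0.22 in 2aECKO and -0.05 in 2aiECKO, differed by 0.27, Hadha, at -0.03 and 0.09, by -0.12, and Cpt1a, at -0.01 and 0.04, by -0.049 (log2, the difference in 2aECKO minus that in 2aiECKO). None of the 6 values reached 25% higher or 20% lower.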

How the results depend on the processing

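No paired analysis was possible because each group has 1 array and the labels carry no replicate numbers, and no replicate could be left out. Pdk4 was counted as higher in 2aECKO under every alternative but a fold of 1.5, where neither knockout had any of the 9 higher (0 and 0). In 2aiECKO it also dropped out at a minimum signal of 100, where 0 were higher, since its signal was 97.5. Within the pairs its log2 difference ran from 0.35 to 0.36 in 2aECKO and from 0.36 to 0.40 in 2aiECKO. With probe sets averaged per gene, the median of the 9 in 2aECKO was -0.0097. Against the other model's control, after quantile normalization over 4 arrays, 2 genes (Angptl4 and Acadl) were lower in 2aECKO with a median of -0.076, and 3 (Angptl4, Cpt2 and Acadl, without Pdk4) were higher in 2aiECKO with a median of 0.23. Against the mean of both controls the medians were 0.0021 and 0.15, and 0 were higher in 2aiECKO. These settings bring in the difference between the controls by construction. Of 90 values of single genes under alternatives within a pair, 3 moved by more than the robust SD of all genes (0.13 in 2aECKO and 0.12 in 2aiECKO), all at genes with a dim other probe set, Acadl and Angptl4; against other controls 25 of 36 did. Ppara stayed below a signal of 50 on all 4 arrays as deposited, which limits any statement on it.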

Other observations

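Lists of other cell types gave these values. Over all genes 2.21% were higher and 1.74% lower in 2aECKO, and 1.88% and 0.598% in 2aiECKO. Of 11 endothelial markers, 0 were called in either, with medians of 0.07 and -0.13. Emcn was highest in 2aECKO, at 0.28 and 0.06, and Slco1a4 in 2aiECKO, at 0.26 and 0.21. Tie1 was lowest in 2aECKO, at -0.25 and -0.21, and Tek in 2aiECKO, at 0.07 and -0.24. Of 8 mural markers, 0 were called in 2aECKO and 2 were lower in 2aiECKO, with medians of 0.04 and -0.08. The 2 were Abcc9 at -0.39 and Kcnj8 at -0.35, the channel genes of pericytes. Another Abcc9 probe set of signal 75.3 gave 0.10 in 2aiECKO. Pdgfrb went the other way and was highest in both, at 0.29 and 0.25, with 0.04 and 0.11 at its other probe set. Cspg4 was lowest in 2aECKO, at -0.20 and -0.15. Of 10 oligodendrocyte lineage markers, 1 was lower in 2aECKO, Mobp at -0.34, and 1 higher in 2aiECKO, Mbp at 0.42, with medians of -0.0049 and 0.08. The other Mbp probe sets gave from -0.08 to 0.39 in 2aiECKO. Cnp, highest of these markers in 2aECKO, had 0.23 and 0.28. Of 11 neuron markers, 1 was lower in 2aECKO, Slc17a7, the vesicular glutamate transporter of cortex, at -0.39, and 0 were called in 2aiECKO, with medians of -0.04 and -0.02. Slc17a6 was highest of them in both, at 0.17 and 0.08. Of 4 red cell markers measured, 1 reached a signal of 50 in the 2aECKO pair and 0 in the 2aiECKO pair, with medians of -0.10 and -0.10. That 1, Alas2, was the only one above 0 in 2aECKO, at 1.05 with signals of 57.9 and 119.6, and was counted as higher. It had -0.51 in 2aiECKO at signals below 50.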
